A study of Mus musculus with 6 samples.

Results

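The NF-kB pathway is described here through 10 genes in Hepa1-6 cells, a mouse hepatoma line that serves as a model of liver cells, with and without depletion of Crebl2. The genes were taken by name: the subunits Rela, Nfkb1, Nfkb2 and Relb, the inhibitors Nfkbia, Nfkbie and Tnfaip3, and the target genes Ccl2, Cxcl1 and Icam1. They are 10 of 38481 genes with deposited rows, and 9 of the 10 were among the 11616 genes tested. In both groups, lipid-transfected siRNA acted for 3 days. The control group (Luc siRNA, 3 libraries) received an siRNA to Renilla Luciferase, which mouse cells lack, and the other group (Crebl2 siRNA, 3 libraries) one to Crebl2, a leucine zipper protein of the CREB type. In this design, loss of Crebl2 and any other effect of the siRNA to Crebl2 cannot be told apart. All 6 libraries come from 1 established line, untreated cells were not analysed here, and nothing in the labels says whether libraries were separate cultures, so p-values measure the spread between these libraries, which may be technical.

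NF-kB factors are pairs of related DNA-binding subunits that wait in the cytoplasm, bound by IkB proteins. Receptors for tumour necrosis factor, interleukin 1 or bacterial products switch on a kinase that marks IkB for destruction, and the freed subunits enter the nucleus. There they turn on genes for chemokines and adhesion molecules, and also genes for their own inhibitors, which closes a feedback loop. In liver the pathway is known for the acute phase response and for protection of hepatocytes from death signals.

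The libraries held 27082572 to 29158489 counts each. The siRNA target Crebl2 stood at 26.9% of its control level (log2 fold change -1.90, edgeR adjusted p = 2.83e-12), with no overlap between the groups. Of the 11616 tested genes, 38.9% passed the edgeR test at an adjusted p under 0.05, 20.1% lower and 18.8% higher after Crebl2 siRNA. With library size alone as the scaling, 2741 were higher and 1920 lower, against 2180 and 2338 here. Crebl2 siRNA replicate 2 stood apart in its mitochondrial share of counts, 0.859% against 2.09 to 2.52% in the other 5. Of the hepatocyte markers, Alb was at 581 CPM (counts scaled to a common library size, TMM-adjusted), Afp at 278 CPM and Trf at 178 CPM in controls. Of the 5 tested, Trf (log2 fold change -0.42) and Fgb (-1.41) fell, Afp (0.36) rose, and Alb and Apoa1 did not pass the test. The sum over the 10 listed was 1042 to 1126 CPM in controls and 1015 to 1095 after Crebl2 siRNA, and its part in the results below was not tested. Apoa1 was at only 0.648 CPM in controls, on 1035 countable bases. Apob had 6 counts over the 3 control libraries and 16 after Crebl2 siRNA, on 13934 countable bases, and was not tested. Ttr had 23 counts and Ahsg 12 over the 3 control libraries, and Hnf4a and Serpina1a were at 0, on 6 and 221 countable bases.

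Counts per gene appear to rest on bases that no other transcript row shares, and this would decide which of the 10 genes could be measured. The counting settings are not given, so the countable bases are inferred from the annotation. Relb, the partner subunit of the Nfkb2 product, has 3 rows with 2 such bases between them and 0 counts in every library, so its level was taken as not measured. For Rela, Nfkbia, Nfkbie, Icam1, Ccl2 and Cxcl1 the whole mRNA counted, from 813 bases in Ccl2 to 2716 in Rela. Nfkb1 counted on 494 bases of its 5' UTR and 623 of its 3' UTR. Nfkb2 and Tnfaip3 counted almost wholly on alternative first exons, over 316 and 434 bases. In GRCm38 (GENCODE M21), Rela lies at 5637483 to 5648130 and Nfkb2 at 46304320 to 46312385 on the plus strand of chromosome 19. Nfkb1 lies at 135584655 to 135691547 on the minus strand of chromosome 3 and Nfkbia at 55489410 to 55492647 on that of chromosome 12. Nfkbie is on chromosome 17 (45555703 to 45563169, plus), Tnfaip3 on 10 (19000910 to 19015657, minus), Icam1 on 9 (21015985 to 21028817, plus), Ccl2 on 11 (82035571 to 82037453, plus) and Relb on 7 (19606217 to 19629438, minus). In bulk RNA of this kind, fewer expressing cells and less RNA per cell cannot be told apart.

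Promoter sequence is shown first, because 5 of the 7 genes with a RefSeq promoter entry (GRCm38.p6) hold the motif these factors bind. The 250 bases before each start were searched on both strands for the 10-letter kappaB consensus, and overlapping matches were merged. Such a match occurs in 3.9% of all 32851 windows of that length and in 5.32% of the 8333 tested genes with an entry. Nfkbie, Nfkbia and Cxcl1 have 1 site each, and Nfkb2 has sites upstream of alternative starts. Tnfaip3 has 2 sites before its upstream start and no match before its other start. Icam1 and Rela have no match in this window. Only exact matches count, and the Icam1 window holds TGGAAATTCC, which departs from the consensus in its first letter. A window without a match may therefore still hold a kappaB-like site. Ccl2, Nfkb1 and Relb have no entry. The sequences below run 5' to 3' on the gene's strand, with the matches in capitals, for 4 genes whose measured change ranged from the second steepest of the 9 to one that missed the test.
Nfkbie, chr17:45555450-45555699, plus strand: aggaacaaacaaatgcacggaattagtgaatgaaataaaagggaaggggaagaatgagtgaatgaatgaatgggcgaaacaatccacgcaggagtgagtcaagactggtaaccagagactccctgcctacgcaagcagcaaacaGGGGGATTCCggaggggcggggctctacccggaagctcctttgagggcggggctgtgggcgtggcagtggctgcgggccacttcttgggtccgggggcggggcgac
Nfkb2 upstream start, chr19:46304487-46304736, plus strand: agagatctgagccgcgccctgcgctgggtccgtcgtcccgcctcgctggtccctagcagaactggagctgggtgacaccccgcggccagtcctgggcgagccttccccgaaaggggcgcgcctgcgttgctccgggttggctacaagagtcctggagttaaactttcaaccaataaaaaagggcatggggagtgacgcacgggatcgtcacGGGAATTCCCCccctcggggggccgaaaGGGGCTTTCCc
Nfkb2 downstream start, chr19:46305445-46305694, plus strand: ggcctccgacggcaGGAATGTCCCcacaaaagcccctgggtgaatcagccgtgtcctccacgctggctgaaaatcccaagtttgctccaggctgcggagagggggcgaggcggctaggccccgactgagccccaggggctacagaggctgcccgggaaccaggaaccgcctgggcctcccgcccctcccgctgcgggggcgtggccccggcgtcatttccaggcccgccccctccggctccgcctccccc
Nfkbia, chr12:55492648-55492897, minus strand: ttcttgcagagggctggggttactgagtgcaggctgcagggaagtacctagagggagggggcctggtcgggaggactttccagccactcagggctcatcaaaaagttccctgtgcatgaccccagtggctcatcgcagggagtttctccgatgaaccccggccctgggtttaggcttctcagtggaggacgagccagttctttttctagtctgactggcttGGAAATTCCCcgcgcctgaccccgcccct
Cxcl1, chr5:90890995-90891244, plus strand: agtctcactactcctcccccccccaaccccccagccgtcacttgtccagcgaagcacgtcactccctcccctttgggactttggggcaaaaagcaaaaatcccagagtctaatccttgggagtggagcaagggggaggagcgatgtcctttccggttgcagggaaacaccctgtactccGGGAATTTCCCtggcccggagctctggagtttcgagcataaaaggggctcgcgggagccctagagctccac
The matches start 106 bases before the start of Nfkbie, 29 before that of Nfkbia and 71 before that of Cxcl1. The upstream start of Nfkb2 has matches that start 39 and 11 bases before it, and its downstream start has 1 that starts 236 bases before it. One more RefSeq start of Nfkb2, whose window is not printed, has 1 that starts 225 bases before it. A match is a run of letters and no evidence of binding in these cells.

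After Crebl2 siRNA, 7 of the 9 tested genes fell by the edgeR test, where 20.1% of all genes tested fell and 38.9% were called in either direction. Cxcl1 and Tnfaip3 did not pass it. No gene rose, and all 9 log2 fold changes were negative with edgeR, DESeq2 and limma-voom. The median log2 fold change of the 9 was -0.49, against 0.00519 over all genes tested. The 7 falls ran from a log2 fold change of -1.94 for Ccl2 to -0.15 for Nfkbia. Groups did not overlap for 8 of the 9, each lower after Crebl2 siRNA, whereas 24.9% of all tested genes were set apart in that direction and 48.8% in either. The genes were chosen with earlier results of these data known, so these contrasts with all tested genes are descriptive only.

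**Figure D1:**
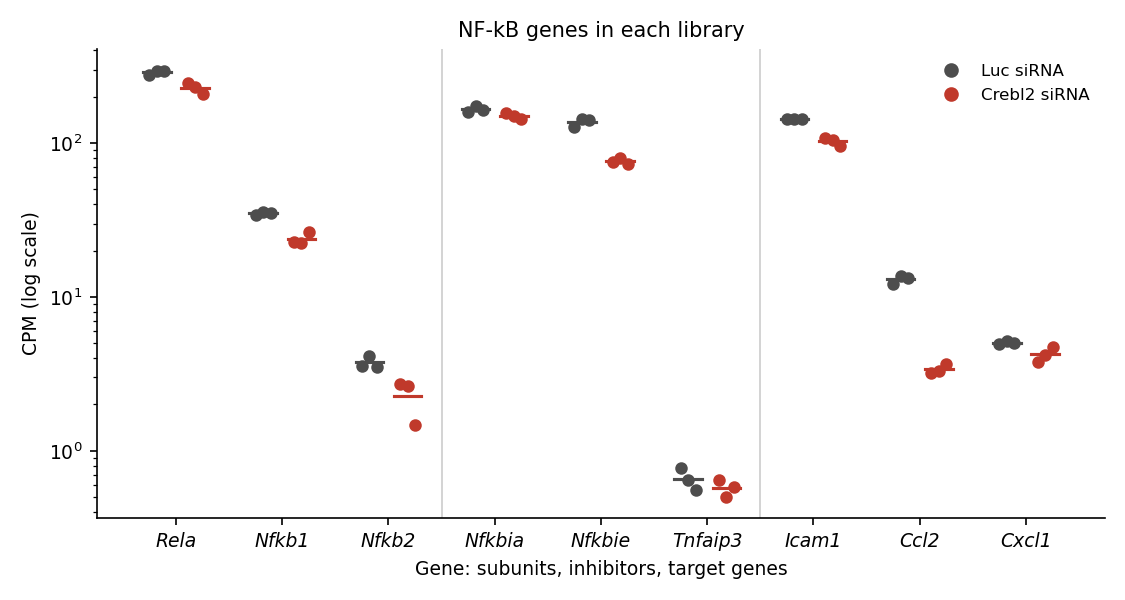
Expression of the 9 tested genes in each library, as CPM on a log axis, grouped as subunits, inhibitors and target genes. Points are libraries (3 Luc siRNA in grey, 3 Crebl2 siRNA in red) and short lines are group means. Crebl2 siRNA points lie below the control points except for Tnfaip3, and the widest gap is that of Ccl2.

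Rela encodes the main activating subunit. Its level was 276, 294 and 296 CPM in the control libraries and 244, 231 and 207 CPM after Crebl2 siRNA. Every knockdown library lay below every control. Rela fell by 0.34 on the log2 scale (SE 0.0593, 95% interval -0.47 to -0.22, edgeR adjusted p = 0.000228), to 78.8% of control.

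Nfkb1 encodes a long precursor that is cut to the DNA-binding partner of Rela, and the counted bases cannot separate the 2 proteins since both come from the same mRNA. Control libraries had 34.0, 35.4 and 35.3 CPM and Crebl2 siRNA libraries 22.6, 22.3 and 26.6 CPM. The groups stood apart, with replicate 3 the highest of the knockdown libraries. The fall came to -0.55 in log2 fold change (SE 0.0751, edgeR adjusted p = 2.34e-05), or 68.3% of control.

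Nfkb2 encodes the subunit precursor of the slower, non-canonical branch, in which it pairs with Relb. It was low in counts, with 102, 116 and 95 in controls and 76, 73 and 41 after Crebl2 siRNA. All knockdown libraries were lower, replicate 3 the most. The log2 fold change was -0.72 (SE 0.192, edgeR adjusted p = 0.00701); without Crebl2 siRNA replicate 3 it was -0.48 (adjusted p = 0.0264).

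The Nfkb2 counts come from 2 transcript rows with separate first exons, one behind each promoter window printed above. The row with the upstream start had 50, 65 and 47 counts in controls and 35, 27 and 19 after knockdown. It fell (log2 fold change -1.00, SE 0.238, edgeR adjusted p = 0.00302 over transcript rows). The row with the downstream start had 52, 51 and 48 counts against 41, 46 and 22, a log2 fold change of -0.47 that did not pass the test (edgeR adjusted p = 0.131). Upstream counts per downstream count were 0.962, 1.27 and 0.979 in controls and 0.854, 0.587 and 0.864 after Crebl2 siRNA. These groups did not overlap, but the exact two-sided permutation p was 0.1, which is the least that 3 libraries a side can give, so a shift between the starts was not shown.

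Of the inhibitors, Nfkbie had the lowest log2 fold change. It encodes IkB epsilon, one of the proteins that hold the subunits in the cytoplasm. It was at 128, 143 and 142 CPM in controls and at 75.0, 79.7 and 73.6 CPM after Crebl2 siRNA, so the groups were far apart relative to their spread. The log2 fold change was -0.85 (SE 0.0578, 95% interval -0.98 to -0.73, edgeR adjusted p = 1.05e-08), or 55.3% of control.

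Nfkbia encodes IkB alpha, the inhibitor that is rapidly destroyed and resynthesised when the pathway is active. It read 159, 173 and 165 CPM in controls and 156, 150 and 144 CPM after Crebl2 siRNA. The lowest control and the highest knockdown library were close, though the groups did not overlap. The log2 fold change of -0.15 (SE 0.0523, 95% interval -0.26 to -0.04) passed the test narrowly (edgeR adjusted p = 0.0348). The call was lost in 6 of 14 alternative settings, namely library size scaling, the replicate block, and the runs without Luc siRNA replicate 2 or 3 or Crebl2 siRNA replicate 2 or 3; adjusted p over the 14 ran from 0.0175 to 0.159.

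Ratios of counts within a library need no scaling, and they set the 2 IkB genes against each other directly. Nfkbie counts per Nfkbia count were 0.805, 0.83 and 0.858 in controls and 0.482, 0.533 and 0.512 after Crebl2 siRNA, a ratio at 61.3% of control. Nfkbie per Rela count went from 0.465, 0.487 and 0.478 to 0.307, 0.344 and 0.356. Rela per Nfkbia count was 1.73, 1.7 and 1.8 and then 1.57, 1.55 and 1.44. In these 3 ratios the groups did not overlap, and each exact two-sided permutation test gave p = 0.1, the smallest possible (0.117 adjusted over the 7 ratios computed). By contrast Nfkb1 per Rela count overlapped between the groups, because knockdown replicate 3 (0.129) exceeded the controls (0.119 to 0.123; exact permutation p = 0.4).

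**Figure D2:**
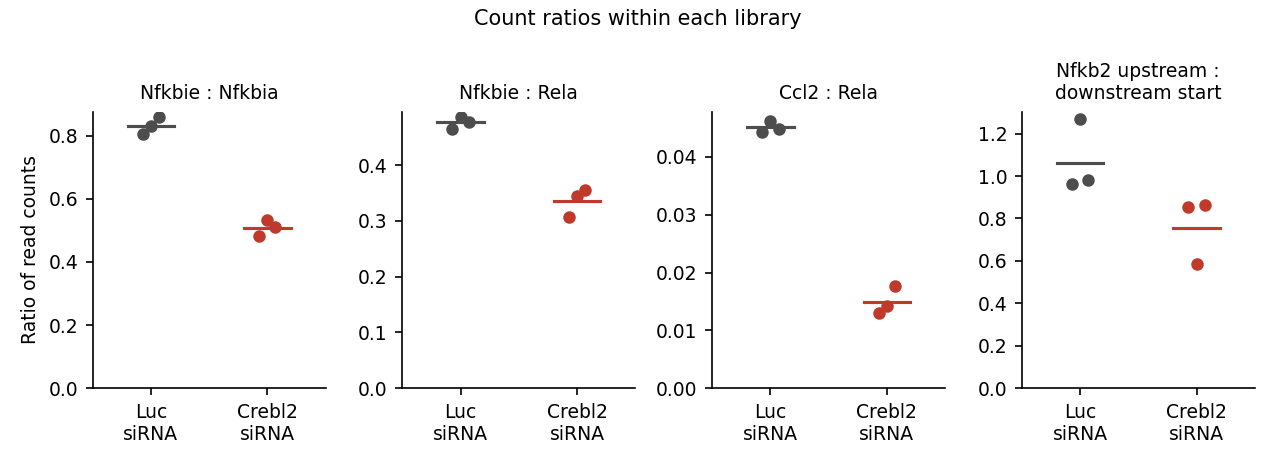
Ratios of read counts within each library, on linear axes from 0, for Nfkbie to Nfkbia, Nfkbie to Rela, Ccl2 to Rela and the 2 Nfkb2 rows. Points are libraries and lines are geometric means; the ratio of Nfkbie to Nfkbia lies between 0.805 and 0.858 in controls and between 0.482 and 0.533 after Crebl2 siRNA.

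Tnfaip3 encodes a ubiquitin-editing enzyme that shuts off signalling downstream of the receptors. It had 22, 18 and 15 counts in controls and 18, 14 and 16 after Crebl2 siRNA, and the groups overlapped. The log2 fold change was -0.19, with a 95% interval from -0.81 to 0.43 (edgeR adjusted p = 0.644). It was -0.06 without Luc siRNA replicate 1, -0.30 without Luc siRNA replicate 3 and -0.10 without Crebl2 siRNA replicate 2. At this depth, the data cannot tell changes within that interval apart.

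Among the target genes, Ccl2 moved most. It encodes a chemokine that recruits monocytes. Its counts were 348, 379 and 360 in controls, falling to 89, 92 and 101 with Crebl2 siRNA, which is 12.2, 13.6 and 13.3 against 3.19, 3.31 and 3.64 CPM. The groups were far apart. Ccl2 fell 3.85-fold (log2 fold change -1.94, SE 0.109, edgeR adjusted p = 1.46e-09), the 28th steepest fall among the 11616 genes tested. The ratio of summed counts, scaled by TMM-adjusted library sizes, was 0.26 (95% exact interval 0.227 to 0.296, counting error only). Ccl2 counts per Rela count came down as well, from 0.0443, 0.0462 and 0.0448 to 0.013, 0.0143 and 0.0176 (exact permutation p = 0.1).

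Icam1 encodes an adhesion molecule that binds leukocyte integrins. It was nearly constant in controls at 144, 144 and 144 CPM and lower after Crebl2 siRNA at 108, 104 and 95.9 CPM. The groups did not overlap. It fell by 0.49 on the log2 scale (SE 0.0539, edgeR adjusted p = 2.35e-06), to 71.1% of control. Relative to Rela the difference was smaller, with 0.523, 0.491 and 0.486 Icam1 counts per Rela count in controls and 0.442, 0.449 and 0.464 after knockdown (exact permutation p = 0.1).

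Cxcl1 encodes a chemokine that attracts neutrophils. It had 140, 144 and 137 counts in controls and 105, 117 and 132 after Crebl2 siRNA. All knockdown libraries were lower, but replicate 3 came close to the controls. The log2 fold change was -0.25 (SE 0.127, 95% interval -0.52 to 0.02), which did not pass the test (edgeR adjusted p = 0.137). The interval leaves out a fall of the size seen in Ccl2.

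**Figure D3:**
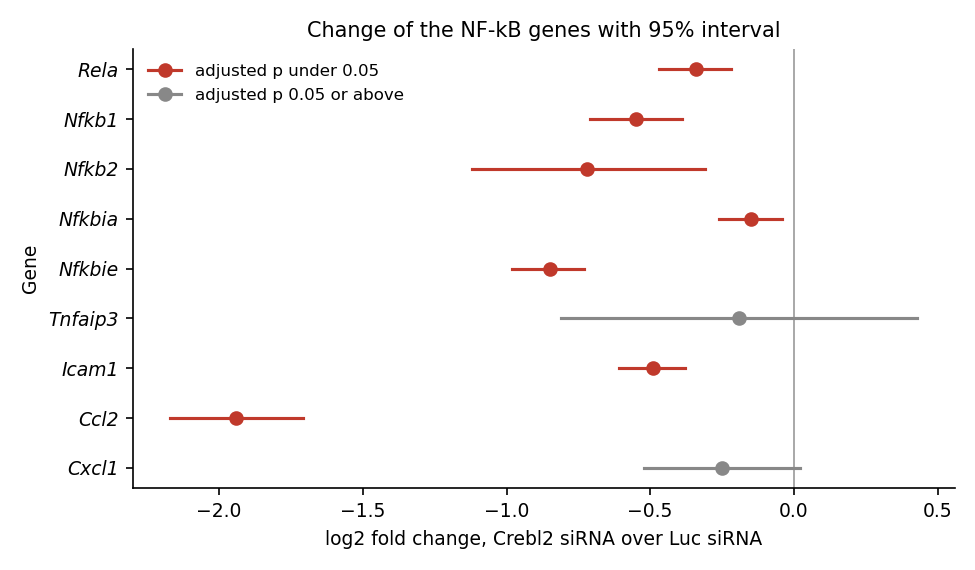
Log2 fold change (Crebl2 siRNA over Luc siRNA) of the 9 tested genes with 95% intervals from the edgeR fit. Red marks an adjusted p under 0.05 and grey one above; Ccl2 stands at -1.94 and Nfkbie at -0.85, while the intervals of Cxcl1 and Tnfaip3 reach past 0.

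Levels can be ordered between genes only per length. In controls, Rela stood at 106 ± 4.16 and Nfkbia at 105 ± 4.27 CPM per kilobase of countable sequence (SD, n = 3), which did not differ beyond their spread. Icam1 (56.9 ± 0.0819) and Nfkbie (56.5 ± 3.4 CPM per kilobase) were likewise level with each other. Nfkb1 followed at 31.1 ± 0.664, Ccl2 at 16 ± 0.892 and Cxcl1 at 5.29 ± 0.132 CPM per kilobase, each step larger than the SDs. Nfkb2 (11.9 ± 1.13) and Tnfaip3 (1.51 ± 0.252 CPM per kilobase) were not placed in this order. Their values pool alternative first exons that lie on separate transcripts, and such pooling may understate the gene. After Crebl2 siRNA, Nfkbia (94.8 ± 3.78) lay above Rela (83.8 ± 7.05), and Icam1 (40.5 ± 2.42) above Nfkbie (31.3 ± 1.32 CPM per kilobase). Ccl2, at 4.16 ± 0.289, lay at the level of Cxcl1 (4.45 ± 0.526 CPM per kilobase). Values for Nfkb1, Nfkb2 and Tnfaip3 rest on UTR or first-exon bases only and may understate or overstate the gene.

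The rest of the pathway was read from 110 further genes in 5 lists by role, of which 69 were tested. Among them 27 fell, 8 rose and 34 did not pass the test, which is 50.7% called against 38.9% of all genes. By direction, 20.1% of all genes tested fell and 18.8% rose. The median log2 fold change of the 69 was -0.10.

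Receptors split in direction. Of 12 tested receptors and ligands, 5 fell and 3 rose, with a median of 0.00. The interleukin 17 receptor Il17ra (78.2 to 57.4 CPM, log2 fold change -0.45), the bacterial lipid receptors Tlr2 (-0.32) and Tlr4 (-0.27) and the tumour necrosis factor receptor Tnfrsf1a (535 to 447 CPM, -0.26) fell. Il1rap, the co-receptor for interleukin 1, was at 1.89 ± 0.307 CPM in controls and rose to 4.02 ± 1.13 CPM (mean ± SD of 3 libraries each), a log2 difference of 1.08 (SE 0.209, edgeR adjusted p = 0.000597). The other 2 that rose, named after their values were seen, were the second tumour necrosis factor receptor Tnfrsf1b (0.22) and interleukin 1 alpha, Il1a (1.30), the latter on 16 control and 40 knockdown counts. Of the ligands, Tnf had 0 counts on 177 countable bases and Il1b had 1 count in all.

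Adaptors and kinases leaned downward, with 8 of 18 lower, 2 higher and a median log2 fold change of -0.18. The ubiquitin ligase Traf6 fell by 0.35 on the log2 scale (control 135 ± 6.04, knockdown 105 ± 0.778 CPM), the IkB kinase relative Ikbke by 0.70, the death domain kinase Ripk1 by 0.46, and the adaptors Ticam1 by 0.31 and Tradd by 0.25 on the log2 scale. The 2 that rose, named after their values were seen, were the adaptors Tirap (0.30) and Traf5 (0.38). Chuk and Ikbkg, which encode 2 parts of the IkB kinase complex, have 21 and 180 countable bases and were not tested. Ikbkb, which encodes another part and is named after its values were seen, had 1412 counts in controls and 1243 after Crebl2 siRNA. It was not called (log2 fold change -0.18, edgeR adjusted p = 0.0901).

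The other subunit and IkB-type genes were not called. Of 5 tested, none passed edgeR, and DESeq2 and limma-voom called 0 of them too, while 1, Bcl3, had an unadjusted edgeR p under 0.05. Bcl3, a nuclear IkB relative, had 38.7 ± 2.14 CPM in controls and 34.2 ± 2.29 CPM after knockdown, a difference of -0.18 on the log2 scale (edgeR adjusted p = 0.0512). Rel, another subunit gene, was at 39.9 CPM in controls and differed by 0.05. Nfkbib, which encodes IkB beta, differed by -0.17 on 45 and 40 counts, and the IkB-binding GTPases Nkiras1 and Nkiras2 by -0.03 and 0.03.

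Of 13 ubiquitin editors and feedback genes, 5 fell and 1 rose, with a median of -0.09. The steepest was Rnf11, a partner of the Tnfaip3 enzyme, at 15.7 ± 1.88 CPM in controls and 7.16 ± 1.13 CPM after knockdown, which is -1.13 on the log2 scale (edgeR adjusted p = 1.38e-06). The TRAF-binding Tank fell by 0.55, the inhibitor of apoptosis Birc3 by 0.25 and the linear-chain deubiquitinase Otulin by 0.15 on the log2 scale, while the ubiquitin ligase Itch rose by 0.38.

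Other target genes comprised 21 tested, of which 9 fell and 2 rose, with a median of -0.11. The transmembrane chemokine Cxcl16 went from 211 ± 6 to 108 ± 4.42 CPM, which is -0.96 on the log2 scale (edgeR adjusted p = 8.33e-10). The adhesion molecule Vcam1 fell by 1.00, the antigen loading factor Tapbp by 0.47, the chemokine Ccl5 by 1.23 (141 to 60 counts) and the macrophage growth factor Csf1 by 0.80. The 2 that rose, named after their values were seen, were the neutrophil chemokine Cxcl5 (0.63) and the cytokine Il15 (0.57). A further 18 had too few counts to test; among these, Il6 had 1 count in each group and Ptgs2 2 and 3, on over 1000 countable bases each.

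**Figure D4:**
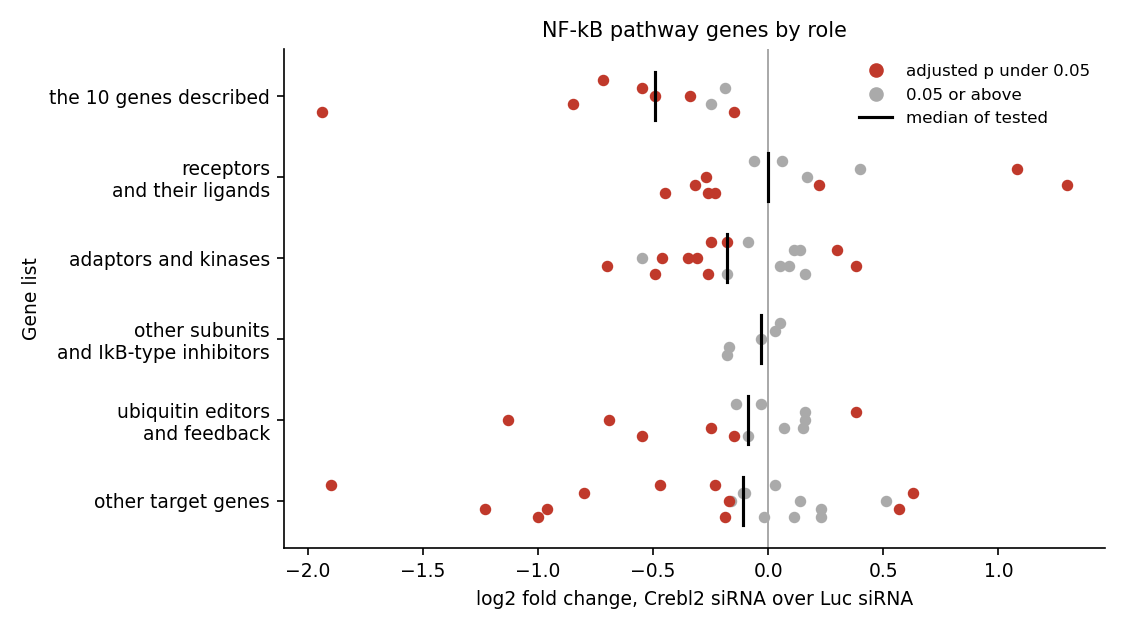
Log2 fold change of each tested gene in the 10-gene set and in the 5 role lists of other pathway genes. Red points have an edgeR adjusted p under 0.05, grey points do not, and black lines are medians, which run from -0.49 in the 10-gene set to 0.00 for receptors and ligands.

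Markers of other cell types were compared beside these genes. Of 8 macrophage markers 3 were tested and 2 were lower, Cd14 (36.2 to 23.7 CPM, log2 fold change -0.61) and Lyz2 (-0.84), and their summed level was 37 to 39.3 CPM in controls and 23.1 to 27.8 CPM after Crebl2 siRNA. The defining markers Ptprc and Itgam were at 0 counts in every library, on 429 and 274 countable bases, and Cd68 was not called (0.12). Of 8 stellate and fibroblast markers 3 were tested, with Dcn lower (-0.55), Des higher (0.35) and Col1a1 at -0.22 without a call; the sum was 224 to 236 and then 178 to 197 CPM. Col3a1 was at 0 on 5423 countable bases and Pdgfrb on 126. Of 7 endothelial markers only Vwf was tested and it was higher (0.72); the sum was 19.8 to 23.1 and then 33.3 to 37.4 CPM, with Emcn at 0 on 1231 countable bases and Tek on 48. Most of each sum in controls came from a single gene, namely Cd14, Dcn (171 CPM) and Vwf (21.5 CPM) in turn. The part of these markers in the changes of the 10 genes was not tested.

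One sequence feature was counted in the 3' UTRs. The 7-base word GAAATGT, picked out in earlier results of these data, was found in 29.2% of the 3' UTRs of 2181 genes that fell (median length 1385 bases). Its share was 16.5% for 5787 genes without a call (median 995 bases) and 11.9% for 1890 genes that rose (median 986.5 bases). Since the word was picked from these same data, these shares are no independent support for it, and the 3' UTRs of genes that fell were also longer. Among the 10 genes, Nfkb1 holds it 2 times and Icam1 1 time, and the other 8, Ccl2, Nfkbie and Rela among them, do not. Its part in the falls of Nfkb1 and Icam1 was not tested.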

How the data were processed

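RNA of 6 Hepa1-6 libraries was sequenced after stranded total RNA preparation, per the labels' protocols. The files deposited by the authors hold raw counts for each Ensembl transcript, with no normalisation recorded; Trim Galore, TopHat, HTSeq and the builds mm9 and GRCm38 are named in the submitters' processing notes, and no source used here gives their settings or the use of strand. By identifier, 58264 of the 58611 rows matched GENCODE M21 (GRCm38), and counts were summed per gene; the 347 unmatched rows (at most 0.0497% of a library) stayed as unnamed features. The countable bases of a row are exonic bases that no other deposited row covers on either strand.

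Genes were tested with edgeR 4.0.16 in R 4.3.3 (quasi-likelihood, two-sided, TMM, filterByExpr, Benjamini-Hochberg over all 11616 genes, called under 0.05). Standard errors come from the fold change and its F statistic. CPM uses TMM-scaled library sizes. The fit was tested on simulated data.

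The alternatives were DESeq2 1.42.0, limma-voom (limma 3.58.1), other scalings and filters, a replicate block, leaving out each library, and single transcript rows. All 10 genes are named. Of each list of other pathway genes, the 5 called with the smallest p and all tested subunits and IkB-type inhibitors are named. Of markers, up to 3 per list with the highest levels are named. Fgb, Apoa1, Apob, Ttr, Ahsg and the markers at 0 were added after their values were seen. Genes and lists were chosen with earlier results of these data known.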

Additional observations from a re-analysis of the deposited data

How the results depend on the processing

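Of the alternative settings, none changed the direction of a gene called here, and Ccl2, Nfkbie, Icam1, Nfkb1 and Rela passed the test in all 14. Between 6 and 7 of the 10 genes were called in these 14, and 28 to 38 of the other pathway genes in the 13 run by gene. Nfkbia missed the threshold with library size alone (log2 fold change -0.10, adjusted p = 0.142) and with the replicate block (-0.15, 0.0815), and leaving out single libraries gave -0.18 to -0.12. With single transcript rows, Nfkb2 (its downstream-start row, -0.47, adjusted p = 0.131) was no longer called, and Tnfaip3, uncalled throughout, read 0.10 on 85 counts. Higher calls among other pathway genes ran from 5 to 11 when single libraries were left out, the 5 without Luc siRNA replicate 2; the cause was not tested. The 1 CPM filter left Tnfaip3 without a value. Whether replicate numbers pair the libraries was not settled. Deviations of same-numbered libraries correlated at -0.133, -0.0443 and -0.0847, and those of differently numbered libraries at -0.016 to 0.0951. With 3 libraries a group, such values cannot decide it. The replicate block called 3983 genes against 4518, and 6 of the 10 genes against 7, Nfkbia being the one lost. Depth limits Tnfaip3 (55 and 48 counts), Nfkb2 (313 and 190) and Cxcl1 (421 and 354), and the median log2 fold change over all genes was 0.005 with TMM or DESeq2 size factors and 0.054 with library size alone.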

Other observations

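Of 4 listed chemokine genes that lie near each other on chromosome 5, Cxcl5 was the one that passed the test. From the deposited counts (GRCm38 positions from GENCODE M21), Cxcl5 (90759360 to 90761624) had 96, 106 and 119 counts in controls and 161, 160 and 177 after Crebl2 siRNA, and rose (log2 fold change 0.63, edgeR adjusted p = 0.00098). Cxcl3 (90786103 to 90789600), with 317, 295 and 266 counts against 338, 329 and 300, did not pass the test (0.14, adjusted p = 0.245). Cxcl1, at 90891241 to 90893115, had the log2 fold change of -0.25 given above, and its neighbour Cxcl2 (90903871 to 90905938), with 30 and 17 summed counts, was too low to test. These genes encode related neutrophil attractants, and they were set side by side after their values were seen; the difference between them was not tested.

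On chromosome 11, Ccl7, the gene next in position to Ccl2 among those listed, had 0 counts in every library on 801 countable bases, so the fall of Ccl2 could not be compared with that of its neighbour. Ccl5, farther along the same chromosome, had 141 counts in controls and 60 after Crebl2 siRNA.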
